A study of Mus musculus with 17 samples.

Results

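Voltage-gated potassium channels and their auxiliary subunits were described in the mouse hippocampus after sleep deprivation, as 44 genes measured by 95 probe sets out of 18193 genes and 45037 probe sets tested. The members were all genes whose symbol begins with Kcna, Kcnab, Kcnb, Kcnc, Kcnd, Kcne, Kcnf, Kcng, Kcnh, Kcnip, Kcnq, Kcns or Kcnv followed by a digit, and which had a probe set (a group of short probes reading 1 transcript) that carried a single gene symbol. Where a gene had several probe sets, its value is that of the brightest of them on average over the 17 arrays. The symbol rule also took in Kcnq1ot1, a non-coding transcript of the Kcnq1 locus. A further 9 listed genes of these families, the Kv2 pore genes among them, were not analysed here.

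The study compared 8 male mice deprived of sleep for 5 h, through gentle handling in their home cages, with 9 male mice left undisturbed in theirs, and hybridised the hippocampal RNA of each animal to its own Affymetrix array. All 17 animals were of the inbred C57BL/6J strain according to the growth protocol (C57/BL6 in the genotype label), with no transgene or mutation named. They were 2 months old in the sample labels and 2 to 4 months in the growth protocol, were housed singly under 12 h of light and 12 h of dark, and were handled on each of the 6 days before the experiment. Dissection followed directly on the 5 h and alternated between the groups. No mice were handled during those 5 h and allowed to sleep, so the effects of handling and of lost sleep cannot be told apart.

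Voltage-gated potassium (Kv) channels open when the membrane depolarises and let potassium leave the cell, which ends action potentials, sets the interval between them and limits the spread of signals along dendrites. Pore-forming subunits of the Kv1, Kv3, Kv4, Kv7 and ether-a-go-go (Kcnh) families conduct on their own, whereas silent subunits conduct only after joining the pores of the Kv2 family. In hippocampal pyramidal cells Kv4 channels with KChIP proteins carry much of the dendritic A-type current, Kv1 channels sit mainly in axons and terminals, and Kv7 channels carry the M-current that muscarinic receptors shut off.

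All values are log2 signals, and each difference is the mean of sleep-deprived mice minus that of undisturbed mice, so that −1 would be a halving of the signal. Array medians lay between 6.17 and 6.22 in sleep-deprived mice and between 6.13 and 6.19 in undisturbed mice. The range of values on an array (interquartile range) was 3.57 to 3.76 with a median of 3.65 in sleep-deprived mice, against 3.62 to 3.80 with a median of 3.72 in undisturbed mice. A narrower range goes with slightly lower values of bright genes and higher values of dim ones. All 8 markers of hippocampal principal neurons were measured, with mean signals between 7.38, for the dentate granule cell gene Prox1, and 12.62, against a median of 7.38 over all genes.

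Of the 44 genes, 3 fell after sleep deprivation in the limma test, adjusted over all genes, and 0 rose. These were Kcnv1, a silent subunit, Kcna4, a Kv1 pore, and Kcnq5, a Kv7 pore. Among all 18193 genes 2.73% fell and 1.25% rose (3.97% in either direction), and the members' share of 6.82% lower rests on these 3 genes. At an unadjusted limma p under 0.05 there were 9 members with lower values (10.9% of all genes) and 3 with higher values (7.65% of all genes). All 8 sleep-deprived mice lay below the undisturbed mean for 7 members, against 6.84% of all genes, and above it for 1 member, against 4.32% of all genes. The groups did not overlap for 2 members, Kcnv1 and Kcna4, both lower in sleep-deprived mice, a pattern found in 0.555% of all genes.

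Over the members as a whole the differences were small. They were negative for 28 genes and positive for 16, with a median of −0.02 against 0.0016 for all genes tested. After quantile normalization or cyclic loess, which equalise the range of the arrays, 23 members were negative and 21 positive, with medians of −0.01 under both. All-gene calls also depended on scaling: 496 genes fell and 227 rose on the deposited values, 390 fell and 336 rose after quantile normalization, 432 fell and 341 rose after cyclic loess, and 621 fell and 142 rose after median centring. Of the 22 pore-forming genes 2 fell and the median difference was −0.05, while of the 21 silent or accessory genes 1 fell and the median difference was −0.0016.

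**Figure D1:**
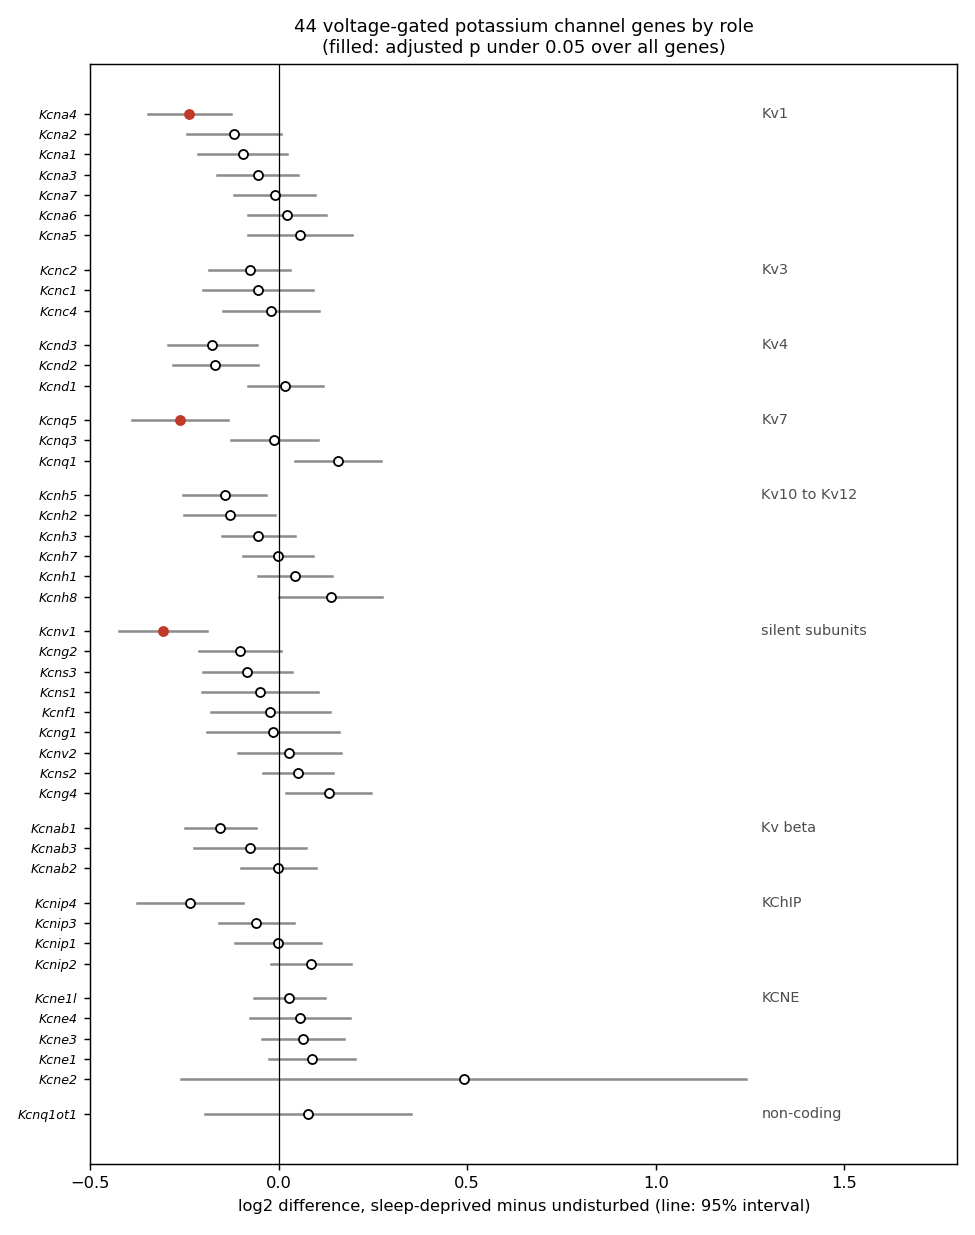
Sleep-deprived minus undisturbed log2 difference of each of the 44 genes with its 95% confidence interval, ordered by the role of the gene. The intervals of Kcnv1, Kcna4 and Kcnq5 lie wholly below 0, as do those of 6 further members that did not pass the adjusted test, and Kcne2 has by far the widest interval of the set, from −0.26 to 1.24.

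Kcnv1 encodes Kv8.1, a silent subunit found in brain that joins Kv2 pores and changes their gating. Its signal was 8.04 at the lowest, 8.35 at the median and 8.48 at the highest in sleep-deprived mice, against 8.56, 8.62 and 8.74 in undisturbed mice. Every sleep-deprived mouse lay below every undisturbed mouse. The means were 8.33 ± 0.16 in sleep-deprived mice (SD, n = 8) and 8.64 ± 0.07 in undisturbed mice (SD, n = 9), a difference of −0.31 (SE 0.06), or 1.24-fold lower, with a limma adjusted p of 0.0029.

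The fall of Kcnv1 was seen on all 3 of its probe sets. The second probe set had a lowest, median and highest signal of 7.58, 7.99 and 8.16 in sleep-deprived mice, against 8.15, 8.27 and 8.48 in undisturbed mice, and was 1.30-fold lower (limma adjusted p = 0.0057 over all probe sets). The dimmest had 6.59, 6.68 and 6.92 in sleep-deprived mice, against 6.88, 7.14 and 7.38 in undisturbed mice, and was 1.33-fold lower (limma adjusted p = 0.0017 over all probe sets). On both of these the groups overlapped only slightly at the border. Of the 4315 genes on the array with 3 or more probe sets, Kcnv1 was the 1 gene for which every probe set fell. The lowest animal on all 3 probe sets was sleep-deprived mouse 2, which was also the array of narrowest range.

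**Figure D2:**
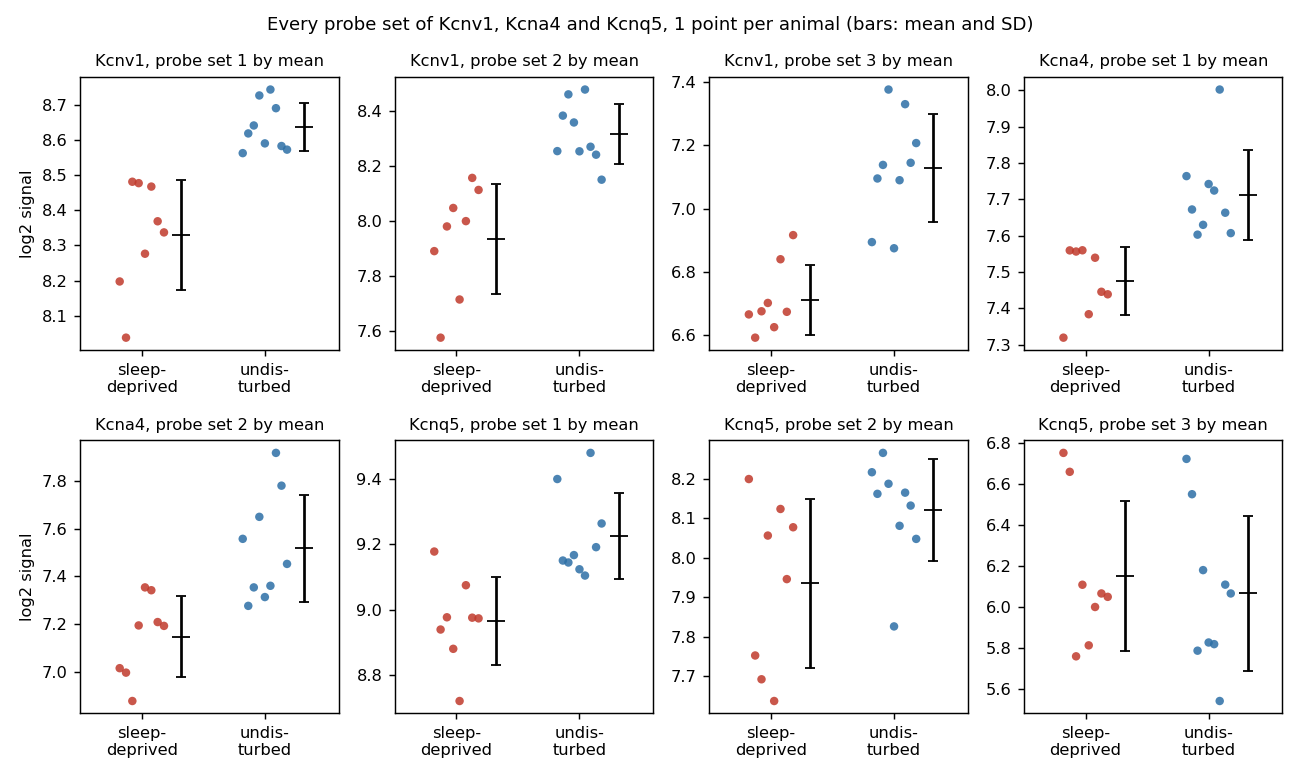
Log2 signal on every probe set of the 3 genes that fell, 1 point per animal, with the mean and SD of each group beside the points. On the brightest probe set, all 8 sleep-deprived mice lie below all 9 undisturbed mice for Kcnv1 and Kcna4, and 7 of 8 do for Kcnq5. On every other probe set of these genes the groups overlap.

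Kcna4 encodes Kv1.4, a rapidly inactivating A-type pore of hippocampal axons and terminals. Its signal was 7.32, 7.49 and 7.56 (lowest, median, highest) in sleep-deprived mice, against 7.60, 7.67 and 8.00 in undisturbed mice. The groups did not overlap. The means were 7.48 ± 0.09 in sleep-deprived mice (SD, n = 8) and 7.71 ± 0.12 in undisturbed mice (SD, n = 9), a difference of −0.24 (SE 0.05), or 1.18-fold lower, with a limma adjusted p of 0.015. The second probe set of Kcna4 fell too, with 6.88, 7.19 and 7.35 in sleep-deprived mice against 7.28, 7.45 and 7.92 in undisturbed mice, 1.29-fold lower (limma adjusted p = 0.029 over all probe sets). Of the 9010 genes with 2 or more probe sets, 11 fell on every probe set, and Kcnv1 and Kcna4 were 2 of these 11.

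The other 6 measured Kv1 pore genes did not pass the test, and 4 of them had negative differences. Kcna1 and Kcna2, which form the low-threshold channels of myelinated axons, had differences of −0.10 (95% confidence interval −0.21 to 0.02) and −0.12 (−0.24 to 0.01). Kcna2 had 9.58, 9.78 and 9.97 in sleep-deprived mice, against 9.72, 9.92 and 10.15 in undisturbed mice, so the groups overlapped widely. The other 3 probe sets of Kcna2 had differences of 0.0019, 0.05 and 0.13, and the mean of all its probe sets gave 0.02, so the sign depended on the probe set. The remaining 4 Kv1 genes lay between −0.06 and 0.06.

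The promoter of Kcna4 is shown beside that of Kcna2, a relative in the same family that did not pass the test, from 250 bases before to 50 bases after the start of transcription, 5′ to 3′ on the strand of the gene (RefSeq, GRCm38.p6). Capitals mark matches to the GC box letters GGGCGG on either strand, and neighbouring matches may overlap.
Kcna4, chr2:107290339-107290638, plus strand: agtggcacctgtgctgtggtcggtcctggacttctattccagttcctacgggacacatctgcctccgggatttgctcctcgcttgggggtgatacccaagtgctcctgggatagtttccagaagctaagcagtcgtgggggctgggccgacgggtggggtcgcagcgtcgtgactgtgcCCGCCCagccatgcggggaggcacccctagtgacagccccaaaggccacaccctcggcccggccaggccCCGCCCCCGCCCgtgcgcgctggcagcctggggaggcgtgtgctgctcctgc
Kcna2, chr3:107101317-107101616, plus strand: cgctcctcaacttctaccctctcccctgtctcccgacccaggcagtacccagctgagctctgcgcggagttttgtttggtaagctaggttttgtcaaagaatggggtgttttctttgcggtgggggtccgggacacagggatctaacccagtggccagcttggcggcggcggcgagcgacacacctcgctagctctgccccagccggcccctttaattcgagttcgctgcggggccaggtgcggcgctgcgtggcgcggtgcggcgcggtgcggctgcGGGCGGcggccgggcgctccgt
The Kcna4 promoter was 67.7% G and C and held 3 GC boxes, and the Kcna2 promoter was 66.7% G and C and held 1, against a median of 52.7% G and C over all 32817 promoters.

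Kcnq5 encodes Kv7.5, a subunit of the M-current channels. Its signal was 8.72, 8.97 and 9.18 (lowest, median, highest) in sleep-deprived mice, against 9.10, 9.17 and 9.48 in undisturbed mice. Of the sleep-deprived mice 7 lay below the lowest undisturbed mouse and 1 lay within the undisturbed range. The means were 8.96 ± 0.13 in sleep-deprived mice (SD, n = 8) and 9.23 ± 0.13 in undisturbed mice (SD, n = 9), a difference of −0.26 (SE 0.06), or 1.20-fold lower, with a limma adjusted p of 0.018.

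The other probe sets of Kcnq5 did not pass the test. The second had 7.64, 8.00 and 8.20 in sleep-deprived mice, against 7.83, 8.16 and 8.27 in undisturbed mice, a difference of −0.19 (limma adjusted p = 0.24 over all probe sets). The dimmest had 5.76, 6.06 and 6.75 in sleep-deprived mice, against 5.54, 6.07 and 6.72 in undisturbed mice, a difference of 0.08. The test of the difference between the dimmest and the brightest probe set gave 0.35 (limma adjusted p = 0.30). The call on Kcnq5 was lost when the mean of its probe sets, the dimmest included, was used (−0.12, adjusted p = 0.43). The dimmest was also its most variable probe set, so that choice of probe set gave the same positive difference. On it mice 1 and 2 of both groups were the highest, at 6.55 to 6.75. The call was also lost without the 2 arrays of narrowest range (−0.22, adjusted p = 0.074) and with the range of each array as a covariate (−0.21, adjusted p = 0.086).

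The table of promoters has 2 starts for Kcnq5, shown as those of the Kv7 gene that fell. They are given as above, and neither held a GC box.
Kcnq5 start 1, chr1:21962601-21962900, minus strand: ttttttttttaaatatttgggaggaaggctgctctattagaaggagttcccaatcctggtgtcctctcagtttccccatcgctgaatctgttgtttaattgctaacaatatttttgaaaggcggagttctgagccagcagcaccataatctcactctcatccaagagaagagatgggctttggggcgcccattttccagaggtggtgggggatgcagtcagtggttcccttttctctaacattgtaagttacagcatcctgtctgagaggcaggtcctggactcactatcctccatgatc
Kcnq5 start 2, chr1:21961893-21962192, minus strand: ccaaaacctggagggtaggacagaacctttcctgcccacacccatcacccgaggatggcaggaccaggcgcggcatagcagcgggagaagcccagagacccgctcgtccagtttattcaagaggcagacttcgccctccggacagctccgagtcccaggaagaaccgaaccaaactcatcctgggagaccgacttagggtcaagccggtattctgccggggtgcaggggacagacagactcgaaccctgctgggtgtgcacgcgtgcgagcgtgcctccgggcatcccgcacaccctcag
The first was 46.0% G and C and the second 62.7%. Promoters were found for 32 of the 44 members, 48 promoters in all, and 4 motifs were searched on both strands. GC boxes were present in 24 of the 48 (50.0%) and in 35.6% of all promoters. The cAMP response element, TGACGTCA, was in 0 of the 48 and in 1.79% of all promoters. The E-box CACGTG was in 3 (6.25%, against 7.15% of all promoters), and the TATA box TATAAA in 1 (2.08%, against 13.6% of all promoters). A match describes the letters in this window and is neither a binding site nor a cause.

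Among the other Kv7 genes Kcnq3, the usual partner of the M-current pore, had 10.44, 10.81 and 10.89 in sleep-deprived mice, against 10.63, 10.81 and 10.87 in undisturbed mice. The difference of −0.01 had a 95% confidence interval of −0.13 to 0.10. Kcnq1, a pore of epithelia and heart, was dim and had a difference of 0.16 (limma adjusted p = 0.11).

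No Kv4 pore gene passed the test. Kcnd2 (Kv4.2), the main A-type pore of pyramidal cell dendrites, had 10.84, 11.11 and 11.23 (lowest, median, highest) in sleep-deprived mice, against 11.10, 11.25 and 11.35 in undisturbed mice. Its difference was −0.17 (SE 0.05, limma adjusted p = 0.090). Kcnd3 (Kv4.3), a Kv4 pore of interneurons and granule cells, had 10.27, 10.44 and 10.54 in sleep-deprived mice, against 10.47, 10.53 and 10.85 in undisturbed mice, a difference of −0.18 (SE 0.06, limma adjusted p = 0.087). For both genes all 8 sleep-deprived mice lay below the undisturbed mean, and the groups overlapped. Of the other 3 probe sets of Kcnd3, all dimmer, 1 had a difference of −0.12 and 2 had 0.03 and 0.12. When each gene's probe sets were averaged, the difference was −0.04 for Kcnd3 (limma adjusted p = 0.70) and −0.09 for Kcnd2 (limma adjusted p = 0.36). Kcnd1, the remaining Kv4 pore, had a difference of 0.02 (95% confidence interval −0.08 to 0.12).

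Kcnip4 encodes KChIP4, a calcium-binding protein that joins Kv4 pores and slows their inactivation. It had 9.23, 9.65 and 9.76 in sleep-deprived mice, against 9.70, 9.83 and 9.95 in undisturbed mice, a difference of −0.24 (SE 0.07) with a limma adjusted p of 0.051. Kcnab1, a beta subunit that binds Kv1 pores and speeds their inactivation, had 10.80, 11.00 and 11.06 in sleep-deprived mice, against 11.03, 11.11 and 11.22 in undisturbed mice, a difference of −0.16 (SE 0.05, limma adjusted p = 0.058). All 8 sleep-deprived mice were below the undisturbed mean for both. Under the alternatives Kcnip4 passed in 6 of 17 and Kcnab1 in 3 of 17, and with 1 array left out Kcnip4 passed in 3 of 17 and Kcnab1 in 2 of 17. With the mean of its probe sets Kcnip4 had a difference of −0.15 (adjusted p = 0.16). Leaving out sleep-deprived mouse 1, 6 or 8 gave Kcnip4 an adjusted p of 0.039, 0.039 or 0.047, and leaving out sleep-deprived mouse 4 or undisturbed mouse 5 gave Kcnab1 an adjusted p of 0.048 or 0.047.

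The lowest animal for Kcnd2, Kcnd3, Kcnip4 and Kcnab1 was the same one, sleep-deprived mouse 5, and it was also the lowest for Kcnq5. On that array the 3′ minus 5′ signal of the Gapdh and actin control probe sets, a measure of RNA quality, was 0.42, against 0.20 to 0.30 on the other 16 arrays, and its range was the second narrowest. With the control measure as a covariate the differences were −0.16 for Kcnd2, −0.17 for Kcnd3, −0.23 for Kcnip4, −0.15 for Kcnab1 and −0.25 for Kcnq5, of which Kcnq5 (limma adjusted p = 0.015) and Kcnip4 (limma adjusted p = 0.050, just under the threshold) passed. With the range of each array as a covariate they were −0.12, −0.10, −0.16, −0.10 and −0.21 in the same order of genes, and none passed. Without sleep-deprived mouse 5 they were −0.13, −0.15, −0.19, −0.13 and −0.23, and Kcnq5 passed (limma adjusted p = 0.038).

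The remaining KChIP genes did not pass the test. Kcnip2, the Kv4 partner chosen here for contrast after its values were seen, had 11.01, 11.16 and 11.33 in sleep-deprived mice, against 10.90, 11.03 and 11.21 in undisturbed mice, a difference of 0.09 (limma adjusted p = 0.38). Kcnip3, also known as DREAM, a KChIP that can bind DNA, had a difference of −0.06 (95% confidence interval −0.16 to 0.04). Kcnip1 and the beta subunit gene Kcnab2 had differences of −0.0016 and −0.00078, with intervals within 0.12 of 0, and Kcnab3 had −0.08.

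**Figure D3:**
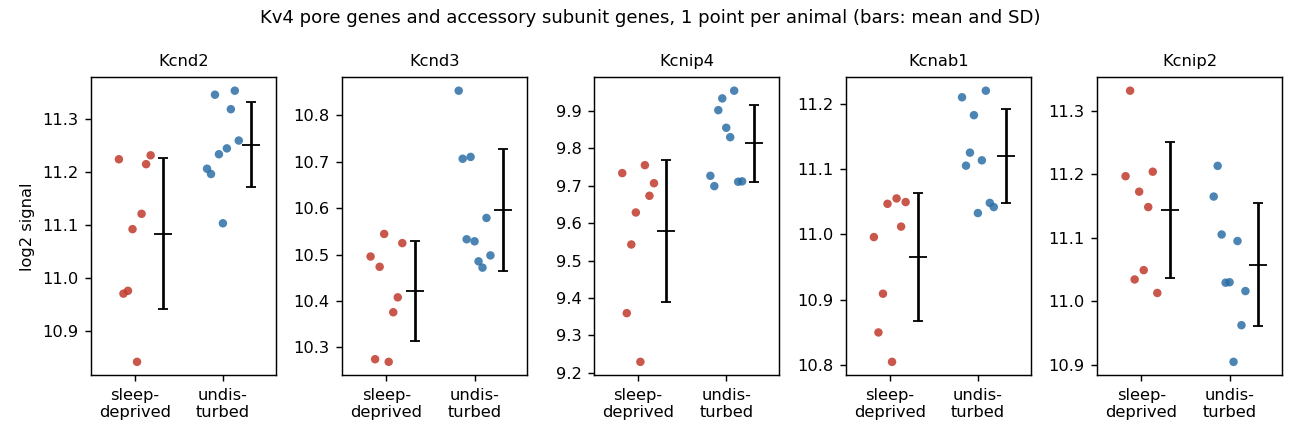
Log2 signal of 2 Kv4 pore genes, 2 genes of Kv4-binding KChIP proteins and the beta subunit gene Kcnab1, 1 point per animal, with mean and SD; each panel has its own axis. All 8 sleep-deprived mice lie below the undisturbed mean for Kcnd2, Kcnd3, Kcnip4 and Kcnab1. For Kcnip2, 5 lie above that mean and 3 below it, and the groups overlap in every panel.

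The Kv3 channels, which let interneurons fire fast, showed no called difference. Kcnc1 had 9.77, 9.99 and 10.28 in sleep-deprived mice, against 9.79, 10.06 and 10.25 in undisturbed mice, a difference of −0.05 (95% confidence interval −0.20 to 0.09), and its other 3 probe sets had −0.14, 0.01 and 0.04. Kcnc2 had a difference of −0.08 (−0.18 to 0.03) and Kcnc4 of −0.02. None of the 6 ether-a-go-go genes passed the test, and 4 of the 6 were negative. The largest difference was that of the dim Kcnh5, with 3.84, 3.98 and 4.15 in sleep-deprived mice against 3.95, 4.16 and 4.28 in undisturbed mice (−0.14, limma adjusted p = 0.14). Kcnh2, the ERG channel, had −0.13 (limma adjusted p = 0.23) and Kcnh8 had 0.14 (limma adjusted p = 0.26).

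Apart from Kcnv1, none of the other 8 silent subunit genes passed the test, and their differences ran from −0.10 for Kcng2 to 0.13 for Kcng4. Kcng4 was the 1 member for which all 8 sleep-deprived mice lay above the undisturbed mean. It had 6.04, 6.11 and 6.33 in sleep-deprived mice, against 5.81, 6.03 and 6.16 in undisturbed mice, and the groups overlapped (limma adjusted p = 0.19).

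All 5 KCNE genes, single-pass subunits that attach to Kv7 and other pores, had positive differences and none passed the test. These genes were dim, with means of 3.65 to 6.69. Over all genes with a mean under 6, 4472 of 6182 were positive, and 1220 of 2110 were at a mean of 6 to 7. The largest KCNE difference was that of Kcne2, which with Kcnq1 serves the epithelium of the choroid plexus. It had 3.74, 4.22 and 6.28 in sleep-deprived mice, against 3.80, 3.99 and 5.86 in undisturbed mice, a difference of 0.49 (SE 0.36, 95% confidence interval −0.26 to 1.24, limma adjusted p = 0.49). The values fell into 2 sets that cut across the groups: 5 arrays, 3 of sleep-deprived and 2 of undisturbed mice, had Kcne2 between 5.30 and 6.28, and the other 12 had it between 3.74 and 4.26.

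The same 5 arrays had the highest signal of Ttr, the transthyretin gene that marks choroid plexus, at 13.8 to 14.3 against 7.12 to 12.1 on the other 12. The 11 measured choroid plexus markers all had positive differences with a median of 0.22 and 0 passed the test, with 1 at an unadjusted limma p under 0.05. Their summed linear signal ran from 717 to 21141 in sleep-deprived mice and from 825 to 18543 in undisturbed mice. Without the 5 arrays the difference of Kcne2 was 0.11 (limma adjusted p = 0.70), and with the choroid plexus markers as a covariate it was 0.12 (limma adjusted p = 0.64). In bulk tissue, fewer cells of a type and less RNA per cell cannot be told apart.

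**Figure D4:**
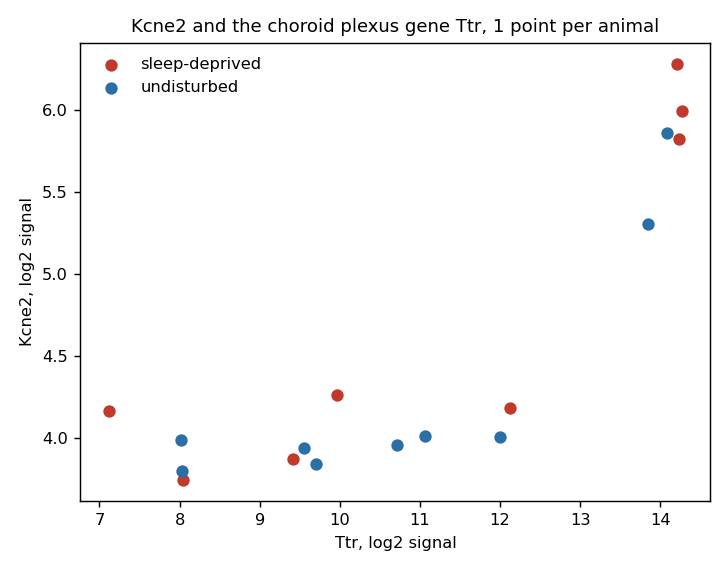
Log2 signal of Kcne2 against that of the choroid plexus gene Ttr, 1 point per animal. The 5 arrays with Ttr over 13, from both groups, carry Kcne2 at 5.30 to 6.28, and the other 12 arrays lie at 3.74 to 4.26.

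The non-coding transcript Kcnq1ot1, which silences imprinted genes at the Kcnq1 locus, had a difference of 0.08 (SE 0.13, limma adjusted p = 0.79). Its 6 probe sets ran from −0.09 to 0.08.

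At the level of probe sets, 6 of the 95 fell (background 1.23% of all probe sets) and 0 rose (background 0.584%). The 6 were the 3 of Kcnv1, the 2 of Kcna4 and 1 of Kcnq5. Of the 27 members with 2 or more probe sets, 10 had negative differences on every probe set, 3 had positive differences on every probe set, and 14 were mixed. No pair of probe sets of a member differed from each other in the limma test, where 1.30% of all 16752 pairs did. The nearest was the dimmest probe set of Kcnd2, with a mean of 3.72 and a difference of 0.13, which exceeded that of the brightest by 0.30 (limma adjusted p = 0.064). The other 2 probe sets of Kcnd2 had differences of −0.17 and −0.14.

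The sign of the difference went with the brightness of the gene, among the members and over the whole array. Of the 36 members with a mean log2 signal of 6 or more, 27 (75%) were negative, with a median of −0.05. Over all 12011 genes above that level 60.2% were negative, with a median of −0.02. Of the 8 members under 6, 1 was negative and the median was 0.08, against a median of 0.04 for all 6182 such genes. After quantile normalization or cyclic loess 21 of the 36 brighter members were negative, with a median of −0.02 under both, against 48.9% and 50.2% of all genes above that level. Kcnv1 and Kcna4 passed the test under both, and so did Kcnq5.

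**Figure D5:**
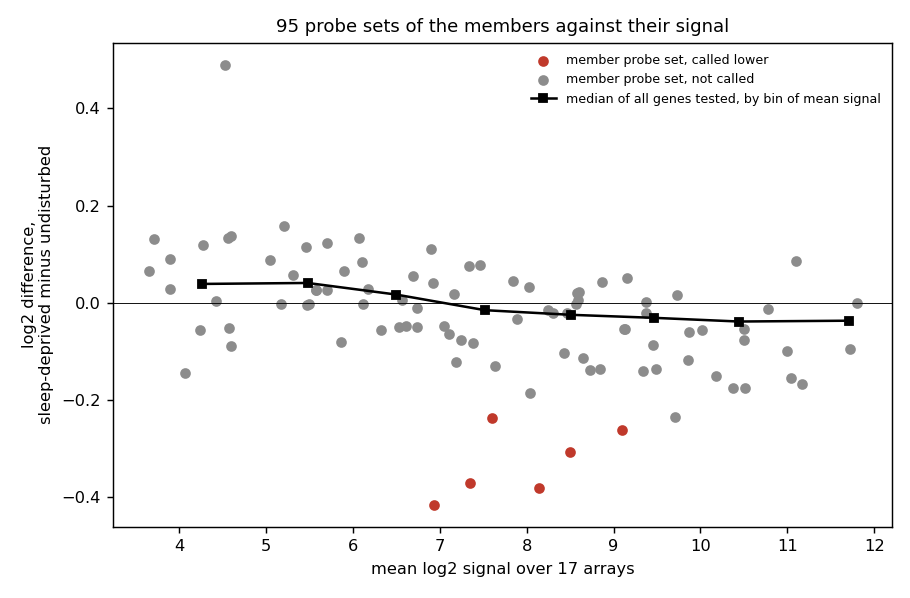
Sleep-deprived minus undisturbed log2 difference of each of the 95 probe sets of the members against its mean log2 signal. The line joins the medians of all genes tested, by bin of mean signal. The 6 probe sets that fell, all of Kcnv1, Kcna4 or Kcnq5, lie below the line. The probe set of Kcne2 lies above it among the dim probe sets.

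Genes outside the symbol families that bind, place or modify Kv channels were taken from a list of 39, of which 34 were measured. Of these, 1 fell (2.94%, against 2.73% of all genes) and 0 rose. Differences were negative for 30 of 34, with a median of −0.08, and the partners were bright, with a median level of 10.15. Among all genes with a mean signal of 10 to 11, 70.1% were negative, with a median of −0.04. The gene that fell was Amigo1, a transmembrane protein that accompanies Kv2 pores, with 7.59, 7.70 and 7.90 in sleep-deprived mice against 7.76, 7.92 and 8.07 in undisturbed mice. Of the sleep-deprived mice 6 lay below the lowest undisturbed mouse. The difference was −0.21 (SE 0.05), or 1.16-fold lower, with a limma adjusted p of 0.028. That call was lost in 6 of 17 alternatives, and without sleep-deprived mouse 3 or 5 or undisturbed mouse 1, 6 or 7 the adjusted p was 0.056, 0.060, 0.054, 0.055 or 0.055.

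The other named partners did not pass the test. Dpp6 and Dpp10, transmembrane proteins that speed Kv4 gating, had differences of −0.10 (limma adjusted p = 0.43) and −0.12 (limma adjusted p = 0.47). Lgi1, a secreted protein that acts on Kv1 channels in axons, had −0.10 (limma adjusted p = 0.18). Lgi1 passed with the mean of all its probe sets (−0.16, limma adjusted p = 0.028) and with its most variable probe set (−0.21, limma adjusted p = 0.038). Cntnap2, which clusters Kv1 channels along axons, had −0.04 (limma adjusted p = 0.72).

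Few markers of the cell types that a hippocampal dissection can hold passed the test. No gene passed the test among 7 astrocyte, 11 choroid plexus, 8 principal neuron, 9 interneuron, 8 microglia, 7 oligodendrocyte and 5 thalamus and cortex markers. Differences were negative for 7 of the 8 principal neuron markers, with a median of −0.05 (Neurod6, a pyramidal cell gene, had −0.21, limma adjusted p = 0.17). They were negative for 6 of the 7 oligodendrocyte markers, with a median of −0.08. Both lists were bright, with median levels of 10.65 and 10.56. Among all genes with a mean signal of 10 to 11, 70.1% were negative, with a median of −0.04. Of 6 endothelial markers 2 fell (33.3%, against 2.73% of all genes), Slco1a4 by 0.32 and Tek by 0.26 on the log2 scale. For Slco1a4 the groups did not overlap, with 9.81 the highest in sleep-deprived and 9.83 the lowest in undisturbed mice. That pattern, lower without overlap, was found in 0.555% of all genes. Endothelial differences were negative for 3 of the 6 and positive for 3. The summed linear signal of the principal neuron markers ran from 13774 to 19254 in sleep-deprived mice and from 14600 to 20851 in undisturbed mice, and its part in the results for the channel genes was not tested. Without the 5 arrays of highest choroid plexus markers, which leaves 5 sleep-deprived and 7 undisturbed mice, Kcnv1 passed the test (−0.33, limma adjusted p = 0.039). Kcna4 (−0.26, adjusted p = 0.10) and Kcnq5 (−0.22, adjusted p = 0.25) did not.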

How the data were processed

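Hippocampal RNA of 17 mice (8 sleep-deprived, 9 undisturbed, separate animals per the labels) was measured on 1 array each. The deposited values were log2 signals that the authors made with RMA and affy, per the submitters' processing notes. Their base was inferred from the range of 2.90 to 14.8. Versions, the order of steps and filters were not given in the sources used here. Scaling between arrays hides a shift common to most genes; the deposited arrays still differed in median and range.

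Of 45101 probe sets 64 controls were left out. Symbols came from the platform annotation, by which 34945 probe sets had 1 symbol, 932 several and 9160 none, and all 44 member symbols matched RefSeq (GRCm38.p6) unchanged. Values were tested two-sided with lmFit and eBayes in limma 3.58.1 under R 4.3.3, adjusted by Benjamini-Hochberg over all genes, probe sets or probe set pairs (threshold 0.05), after the code had been tested on simulated data. The number of arrays limits the precision.

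The members, gene lists and tests were chosen with earlier results of these data known. Named genes were those that passed, those with the greatest difference in each role and a list of names. Kcnip1, Kcnip2, Kcnab2, Kcnab3, Kcnc4, Kcnd1, Kcnq1, Kcnh2, Kcnh8, Kcng2, Kcng4, Slco1a4, Tek, Neurod6, Slc5a3 and Prox1 were chosen after their values were seen. Alternatives covered a filter on mean signal, scaling, moderation, array weights, covariates, other tests, other probe set rules, a replicate block and each array left out. Leaving out the arrays of narrowest range or of highest choroid plexus markers, and array range as a covariate, were added after seeing the data.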

Additional observations from a re-analysis of the deposited data

Results flagged for a closer look

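Over the 88 groups of member values (44 genes in 2 groups), 5 held 1 animal far from the others, and chance gives about 1 in 20 such groups. The measure is the gap of the extreme animal to its neighbour as a share of the group's range.

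For Kcna4, undisturbed mouse 7 was the highest, at 8.00 against 7.76 for the next, a gap of 0.597 of the range. For Kcna5, a Kv1 pore, undisturbed mouse 3 was the highest at 5.57 against 5.30, a gap of 0.566. For Kcnq3, sleep-deprived mouse 5 was the lowest at 10.44 against 10.69, a gap of 0.549. For the silent subunit gene Kcng4, sleep-deprived mouse 1 was the highest at 6.33 against 6.16, a gap of 0.58. For Kcne1l, a KCNE subunit gene, sleep-deprived mouse 5 was the lowest at 6.11 against 6.18, a gap of 0.564.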

How the results depend on the processing

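Kcnv1 passed the test in all 17 alternatives and without each array in turn, with differences of −0.25 to −0.42. Kcna4 passed in 16 of 17 and without each array in turn. Kcnq5 passed in 12 of 17, and its most variable probe set gave 0.084. The number of members called (3) was 5 with a mean signal of 6 or more, 5 with a trend in eBayes, 5 under the replicate block, 1 without the 5 arrays of highest choroid plexus markers, and 3 to 5 with 1 array left out. The call gained by Kcnq1, which was higher, came without sleep-deprived mouse 1. Partner genes called (1) numbered 3 with the signal filter or the trend (Adam23, Amigo1 and Slc5a3). They numbered 2 after quantile normalization or cyclic loess or with array weights (Amigo1 and Slc5a3). Median centring also gave 2 (Adam23 and Amigo1), as did the mean of all probe sets (Lgi1 and Slc5a3, not Amigo1). Slc5a3 was higher in sleep-deprived mice, by 0.25 on the deposited values (limma adjusted p = 0.065). Partner calls numbered 7 under the replicate block, and 0 in the exact rank-sum test and without the arrays of narrowest range or of highest choroid plexus markers. With 1 array left out they numbered 0 to 4 (0 without sleep-deprived mouse 3 or 5 or undisturbed mouse 6 or 7, 2 without sleep-deprived mouse 1 or 2, 3 without undisturbed mouse 9, 4 without undisturbed mouse 5). All genes called (723) numbered 467 in the unequal-variance test, 374 without the narrowest arrays, 413 with range as a covariate (196 lower, 217 higher), 113 without the choroid plexus arrays, where fewer samples were tested, and 481 to 817 with 1 array left out, the lowest without undisturbed mouse 4. Member probe sets called (6) numbered 3 in the unequal-variance test, without the narrowest arrays and with range as a covariate, 0 without the choroid plexus arrays, and 4 to 6 with 1 array left out. Pairs of member probe sets called (0) numbered 1 under the replicate block and 0 to 2 with 1 array left out (1 without sleep-deprived mouse 1, 2 without sleep-deprived mouse 8). Same-numbered animals of the groups correlated at −0.16 to 0.39, and 3 of 8 pairs were over 0.1. In 1 of the 8 the same-numbered animal was the best match, and the replicate block called 913 genes. For Kcnq1ot1 mice 1 and 2 were the highest in both groups, at 7.72 and 7.77 in sleep-deprived and 8.13 and 8.02 in undisturbed mice. Whether replicate numbers mark a shared session was not tested. The causes of these changes were not tested.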
